A study of Rattus norvegicus with 12 samples.

Results

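The genes described here are 48 genes of the dividing cell, 19 that act in S phase, when DNA is copied, and 29 that act in mitosis, when the chromosomes are separated. Of these, 33 could be matched to a gene of the deposited tables, 12 of S phase and 21 of mitosis, among 17423 listed genes. All 33 passed the filter used for every count below, a mean FPKM of at least 0.5 over the 4 groups. FPKM is the fragment count divided by exon length and by a library scale, for which the authors state quartile normalization. The 15 genes that were not matched, Mcm4, Cdc45, Cdc6, Rrm1, Rrm2, Tyms, Ccne1, Top2a, Cdc25b, Aurka, Birc5, Cenpa, Cenpe, Cenpf and Kif20a, were not analysed here.

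The data are RNA-seq of polyA RNA from the injury site of 12 female rats, whose spinal cords received a moderate contusion of 200 kdyn at an age of 16 to 18 weeks. Of each strain, 3 rats were taken 1 week after injury, called the acute phase, and another 3 rats after 8 weeks, called the chronic phase. Rats of the chronic phase were thus older when taken, and age and time after injury cannot be told apart. AN rats are athymic nude rats (Hsd:RH-rnu/rnu), which lack a working thymus and so make few T cells but keep NK cells, B cells and macrophages, and SD rats are immunocompetent Sprague-Dawley rats (Hsd:SD). The rnu allele and the rest of the strain background cannot be told apart in this design, and no uninjured cord was analysed here. All rats were perfused with buffered saline before a 1-mm segment through the lesion was taken, so that the RNA is that of every cell type in the segment. The tables hold 1 FPKM for each group of 3 rats, which is the authors' value for the group. No value for a single rat was available to this work, and the authors' own comparisons of the groups were not used. The ratios below are therefore given without an error or a p-value. A difference is described by its size and by the share of all genes that differed as much. The number of reads behind each value is not given in the tables.

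A cell that divides switches on its cell cycle genes in waves. Replication genes are expressed from late G1 into S phase under the E2F factors, and mitotic genes follow in G2 and M phase under the DREAM and MuvB complexes with B-Myb and FoxM1, which act through a promoter element called the CHR (cell cycle genes homology region). In cells that have left the cycle both waves are repressed, and mitotic transcripts are near absent, whereas several replication proteins also serve DNA repair and stay expressed. After contusion, microglia, infiltrating macrophages, NG2 glia, astrocytes, endothelium, fibroblasts, pericytes and Schwann cells are all known to proliferate at and around the lesion, while neurons do not. In bulk tissue, more dividing cells and more RNA of these genes per cell cannot be told apart.

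The 2 classes have different promoter elements, and 4 promoters are shown so that these letters can be seen beside the strain ratios. RefSeq promoter windows (GRCr8 assembly, 250 bases before to 50 bases after the gene's start) were at hand for 27 of the 33 genes, the others being Aurkb, Ccna2, Ccne2, E2f1, Racgap1 and Ube2c. Shown are the 2 mitotic genes with the highest acute AN to SD ratio that hold both a CHR core (TTTGAA or TTCGAA) and a CCAAT box (CCAAT), and the 2 S phase genes with the highest ratio that hold an E2F site (TTTCGCGC, TTTGGCGC, TTTCCCGC or TTTGCCGC). Capitals mark, on either strand, the CHR core and the CCAAT box in Mki67 and Plk1 (where CCAAT can also read ATTGG) and the E2F site alone in Mcm5 and Gins1, whose own CCAAT boxes are left in lower case.
Mki67 (minus strand, chr1:199952544-199952843): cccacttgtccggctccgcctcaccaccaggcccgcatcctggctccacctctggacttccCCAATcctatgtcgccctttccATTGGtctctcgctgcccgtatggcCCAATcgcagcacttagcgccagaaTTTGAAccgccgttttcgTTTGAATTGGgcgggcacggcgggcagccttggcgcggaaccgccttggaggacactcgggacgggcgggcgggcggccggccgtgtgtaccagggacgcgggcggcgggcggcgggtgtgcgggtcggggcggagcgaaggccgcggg
Plk1 (plus strand, chr1:186147408-186147707): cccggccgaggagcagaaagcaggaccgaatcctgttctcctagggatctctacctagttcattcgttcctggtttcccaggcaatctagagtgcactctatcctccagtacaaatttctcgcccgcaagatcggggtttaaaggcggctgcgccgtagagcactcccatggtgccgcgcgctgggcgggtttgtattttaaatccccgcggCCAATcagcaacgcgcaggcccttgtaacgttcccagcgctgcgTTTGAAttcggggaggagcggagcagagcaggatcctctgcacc
Mcm5 (plus strand, chr19:13488563-13488862): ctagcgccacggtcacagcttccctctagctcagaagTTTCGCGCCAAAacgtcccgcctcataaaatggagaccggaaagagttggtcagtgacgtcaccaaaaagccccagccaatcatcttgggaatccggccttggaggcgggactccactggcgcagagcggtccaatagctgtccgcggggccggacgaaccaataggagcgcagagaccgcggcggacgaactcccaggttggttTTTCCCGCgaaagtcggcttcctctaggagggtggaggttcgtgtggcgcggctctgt
Gins1 (plus strand, chr3:160184670-160184969): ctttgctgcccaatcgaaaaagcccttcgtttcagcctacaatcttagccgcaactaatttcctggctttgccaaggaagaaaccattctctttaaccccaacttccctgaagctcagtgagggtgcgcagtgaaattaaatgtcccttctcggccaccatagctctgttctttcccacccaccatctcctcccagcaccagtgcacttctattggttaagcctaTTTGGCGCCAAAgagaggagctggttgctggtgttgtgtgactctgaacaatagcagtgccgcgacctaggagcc

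In Mki67 the CHR cores begin 117 and 99 bases before the start, and the CCAAT box nearest the start shares its leading base with a CHR core. In Plk1 a CCAAT box begins 38 bases before the start and the CHR core lies at base 7 after it. The E2F letters of Gins1 lie 25 bases before the start and can be read on both strands, since the sites on the opposite strands overlap.

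A CHR core was present in 14 of 17 mitotic promoters (82.4%) and 2 of 10 S phase promoters (20%), which were Mcm2 and Mcm7, against 18.5% of 19005 protein-coding promoters. An E2F site was present in 8 of 10 S phase promoters (80%) and in 1 of 17 mitotic promoters (5.88%), that of Cdk1, against 2.82% of all promoters. The CCAAT box did not separate the classes, with 12 of 17 mitotic (70.6%) and 7 of 10 S phase promoters (70%) against 38.4% of all. The GC box (GGGCGG), an element of neither class, was in 12 of 17 (70.6%) and 7 of 10 (70%) promoters against 43.1% of all and 60.8% of 7173 promoters of named genes past the filter. By that narrower set the shares were 13.8% for the CHR core, 3.97% for the E2F site and 37.2% for the CCAAT box. A match is a description of letters in the window, not evidence that a factor binds there. The 3 mitotic promoters without a CHR core were those of Ccnb1, Bub1 and Kif11, with an acute log2 ratio of AN to SD FPKM of 1.06, 1.09 and 0.81.

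In the acute phase nearly every cell cycle gene was higher in AN than in SD rats. The log2FC, which throughout is the base 2 logarithm of the ratio of AN to SD FPKM, was above 0 for 32 of 33 genes, where 48.7% of all 11814 genes compared were higher in AN rats. It passed 1.5-fold in 25 of the 33, against 7.45% of all genes, and none was 1.5-fold lower, where 19.4% of all genes were. At least 2-fold higher were 5 of the 33 in the acute phase, against 2.08% of all genes, and 1 in the chronic phase, against 2.37%. The median log2FC was 0.81 over the 33 genes, a 1.75-fold higher level, and −0.01 over all genes. Nearest to the threshold were Racgap1, the lowest of the 25 at 1.56-fold, and E2f1, the highest of the remaining 8 at 1.45-fold.

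The mitotic genes lay highest. All 21 were higher in acute AN rats, 20 of them by at least 1.5-fold, with a median log2FC of 0.88 (1.84-fold) and a range from 0.36 to 1.12. Of the 12 S phase genes 11 were higher and 5 by at least 1.5-fold, with a median of 0.49 (1.40-fold) and a range from −0.10 to 0.83. The first 15 genes by acute log2FC were all mitotic, and the highest S phase gene, Mcm5, ranked 16. The difference between the medians of the classes was 0.40 on the log2 scale, and it is given without a test because each group has a single value per gene. Among the members named other than by gene order it was 0.11. All S phase genes under 1.5-fold were named by gene order except Gins2, whose listed locus is shared with another gene. Names from the study's gene table favor genes that differed in the acute phase. Named without that table, 18 of 19 mitotic and 5 of 12 S phase genes were at least 1.5-fold higher.

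**Figure D1:**
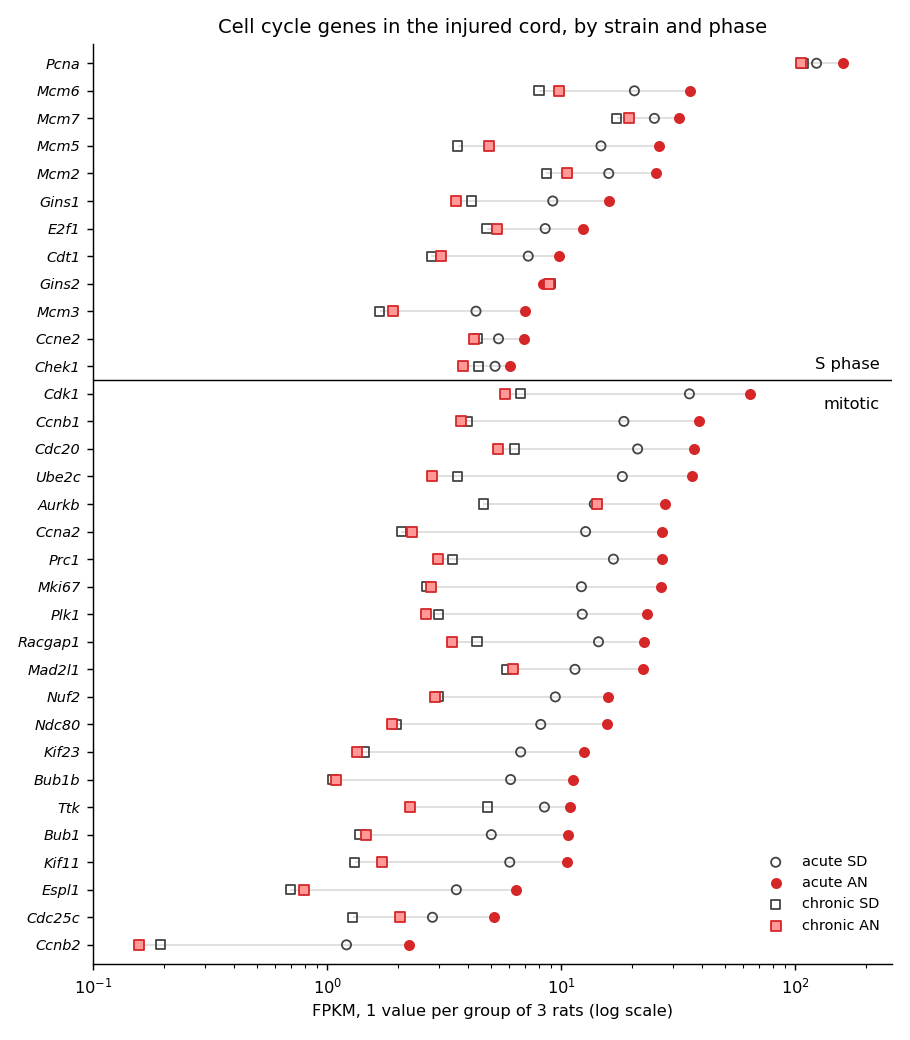
FPKM (log scale) of the 33 cell cycle genes in the 4 groups, 1 symbol for each group of 3 rats, with S phase genes above the line and mitotic genes below it. The acute AN symbol is the rightmost in 32 of 33 genes, and the chronic symbols of the 2 strains lie near each other except in Aurkb, Ttk and a few others.

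Among the proliferation marker Mki67, the cyclins that drive entry into mitosis and their kinase, every acute level was higher in AN rats. Mki67 (chromosome 1, 195310027 to 195336224 on RN4) encodes Ki-67, a protein that coats mitotic chromosomes and marks cycling cells, and it stood at 12.2 FPKM in SD and 26.6 FPKM in AN rats in the acute phase, and at 2.65 and 2.77 FPKM in the chronic phase. Its acute level was thus 2.18-fold higher in AN rats, the highest ratio among the 33 genes, and its chronic levels were 1.05-fold apart. Ccna2, which encodes cyclin A2 and spans S phase to early mitosis, was at 12.7 and 27.0 FPKM in acute SD and AN rats and at 2.08 and 2.31 in the chronic phase. Ccnb1, which encodes cyclin B1, the partner of Cdk1 at mitotic entry, was at 18.5 and 38.7 and then at 3.98 and 3.74 FPKM. Cdk1 itself was the most abundant mitotic gene in the acute phase in both strains, at 35.3 FPKM in SD and 64.1 FPKM in AN rats in the acute phase, and at 6.70 and 5.74 FPKM in the chronic phase. Ccnb2, the other B cyclin listed, was the least abundant at 1.21, 2.23, 0.193 and 0.157 FPKM, with an acute ratio of 1.84-fold close to that of Cdk1 at 1.82-fold. FPKM is scaled by length, which is why levels of different genes are set beside each other here, but a gene model or name that is wrong would shift them.

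The kinases and phosphatase that turn Cdk1 activity into mitotic progression followed. Plk1, the polo-like kinase, was at 12.3 and 23.3 FPKM in acute SD and AN rats and at 2.99 and 2.63 FPKM in the chronic phase. Cdc25c, a phosphatase that activates Cdk1, was at 2.82 and 5.17 in the acute phase and at 1.28 and 2.05 in the chronic phase, so that it was 1.60-fold higher in AN rats there, and 1.34-fold with 1 FPKM added to both levels, under the threshold of 1.5-fold. The acute ratio of Cdc25c, 1.84-fold, did not set it apart from its class, but its chronic ratio was the second highest after Aurkb.

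Genes of the spindle checkpoint and the kinetochore, which delay anaphase until all chromosomes are attached, had acute ratios between 1.28-fold for Ttk and 2.13-fold for Bub1. Bub1, a checkpoint kinase, was at 5.02 and 10.7 FPKM in acute SD and AN rats and at 1.38 and 1.46 FPKM in the chronic phase. Its relative Bub1b, which encodes BubR1, was at 6.07, 11.2, 1.05 and 1.09 FPKM in the same order. Mad2l1, which encodes the checkpoint protein Mad2, was at 11.4, 22.3, 5.84 and 6.20 FPKM. Ndc80 and Nuf2, subunits of the complex that binds microtubules to kinetochores, were 1.93-fold and 1.68-fold higher in acute AN rats and 0.952-fold and 0.964-fold in the chronic phase.

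The genes that end mitosis and divide the cell were also higher in acute AN rats. Cdc20, the activator of the anaphase promoting complex, was at 21.2 FPKM in acute SD and 37.0 in acute AN rats, and Ube2c, the E2 enzyme that works with that complex, was at 18.2 and 36.1 FPKM. Both were slightly lower in AN rats in the chronic phase, with 6.31 and 5.35 FPKM for Cdc20 and 3.60 and 2.80 FPKM for Ube2c. Espl1, which encodes separase, the protease that cuts cohesin at anaphase, was 1.80-fold higher in acute AN rats from a low level of 3.56 FPKM in SD rats. The motors and midzone proteins of the late spindle and of cytokinesis, Kif11, Kif23, Prc1 and Racgap1, had acute ratios of 1.75-fold, 1.86-fold, 1.61-fold and 1.56-fold. Racgap1 and Prc1 were thus among the lower mitotic genes, above Ttk.

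Among S phase genes, 4 of the 5 matched subunits of the MCM helicase, which unwinds DNA ahead of the replication fork, and Gins1 were the 5 past 1.5-fold in the acute phase. Mcm5 was at 14.8 FPKM in acute SD and 26.2 in acute AN rats, a 1.77-fold higher level, and at 3.61 and 4.90 FPKM in the chronic phase. Mcm6 was at 20.5 and 35.5 and then at 8.03 and 9.81 FPKM, Mcm2 at 16.0 and 25.4 and then at 8.63 and 10.6 FPKM, and Mcm3 at 4.32 and 6.99 and then at 1.68 and 1.91 FPKM. These subunits work as 1 ring of 6 proteins, yet Mcm7 was higher by only 1.27-fold in acute AN rats, at 25.0 and 31.9 FPKM. Gins1, a subunit of the GINS complex that completes the helicase, was at 9.19 and 16.0 FPKM in the acute phase and at 4.15 and 3.56 FPKM in the chronic phase. Its partner Gins2 was at 8.97 and 8.35 and then at 8.96 and 8.84 FPKM, the only member with a lower acute level in AN rats. The tables give Gins2 the same locus as another gene, so its value may not be that of Gins2 alone.

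The remaining S phase genes had acute ratios under 1.5-fold. Pcna, the sliding clamp of DNA polymerases that also serves repair, was by far the most abundant member at 123 FPKM in SD and 159 FPKM in AN rats in the acute phase, and at 108 and 106 FPKM in the chronic phase. E2f1, the transcription factor, was 1.45-fold higher in acute AN rats, and Cdt1, which loads the helicase, was 1.36-fold higher. Ccne2, which encodes cyclin E2 of the G1 to S transition, was 1.29-fold and Chek1, the replication checkpoint kinase, 1.16-fold higher. These low ratios were found at high levels (Pcna) and at low levels (Ccne2 and Chek1, at 5.39 and 5.21 FPKM in acute SD rats).

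In the chronic phase the strains were near each other. The log2FC was above 0 for 16 of 33 genes, against 50.8% of all 11817 genes compared, with a median of −0.02 over the 33 genes and 0.00 over all genes. Only 2 genes were at least 1.5-fold higher in AN rats, Aurkb and Cdc25c, against 6.63% of all genes, and 1 was at least 1.5-fold lower, Ttk, against 10.8%. The classes lay in the opposite order to that of the acute phase, with a median of 0.14 for S phase and −0.07 for mitotic genes, a difference of −0.21. Of the 5 MCM subunits all had a chronic log2FC above 0, from 0.18 for Mcm7 to 0.44 for Mcm5, which did not pass 1.5-fold.

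**Figure D2:**
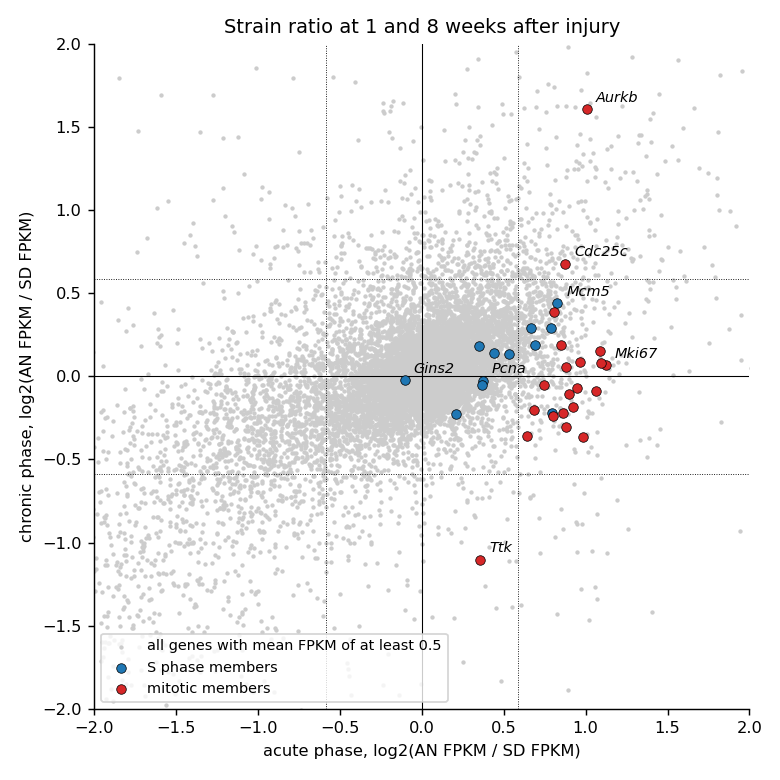
log2FC (AN over SD) in the acute phase, horizontal, and in the chronic phase, vertical, with S phase genes in blue, mitotic genes in red and all genes with a mean FPKM of at least 0.5 in gray; dotted lines mark 1.5-fold, and genes beyond 2 on either axis are not drawn. All members but Gins2 lie to the right of 0, and most spread around 0 on the vertical axis, with Aurkb above and Ttk below them.

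The change of the strain ratio between the phases does not depend on the scale of either table. The acute minus the chronic log2FC was above 0 in 31 of 33 genes, all but Gins2 and Aurkb. The strain ratio was at least 1.5-fold higher in the acute than in the chronic phase for 19 of 33 genes, against 5.01% of all genes, and these were 18 of 21 mitotic genes and, of S phase, Gins1 alone among 12. The median was 1.00 for mitotic genes, 0.40 for S phase genes and −0.05 over all genes. Ttk (1.46), Ube2c (1.35) and Ccnb1 (1.15) were among the greatest on this log2 scale, and the value of Ccnb2 (1.18) rests on chronic levels under 0.5 FPKM. Ccnb2 is among the 19 and the 18 genes counted, but it passed the filter only through its acute levels, so its call is not support for a difference.

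From 1 to 8 weeks the levels were lower in both strains, and more so in AN rats. The 2 tables were normalized separately, so these ratios are a description, and they use the same group values as the strain ratios above. In SD rats 28 of 33 genes were at least 1.5-fold lower in the chronic phase, against 9.23% of all genes, and in AN rats 32 of 33 were, against 13.2%. All 21 mitotic genes were among them in each strain, with 7 of 12 S phase genes in SD and 11 of 12 in AN rats. Ccnb2 passed the filter only through its acute levels, so its call is not support for a difference, and without it the counts were 27 of 32 in SD and 31 of 32 in AN rats, with 20 of 20 mitotic genes in each. The median over genes of the acute to chronic ratio was 4.59-fold in SD rats and 8.36-fold in AN rats for mitotic genes, and 1.81-fold and 2.37-fold for S phase genes. In AN rats the acute level was 12.9-fold the chronic level for Ube2c, 11.7-fold for Ccna2 and 11.2-fold for Cdk1. The ratio of Ccnb2, 14.2-fold in AN and 6.25-fold in SD rats, rests on chronic levels under 0.5 FPKM, and with 1 FPKM added to each level it was 2.79-fold and 1.85-fold. Mcm5 was the S phase gene nearest to the mitotic class, with an acute level 4.09-fold the chronic level in SD and 5.35-fold in AN rats. Pcna in SD rats and Gins2 in both strains barely differed between the phases, at 1.14-fold for Pcna and 1.00-fold and 0.944-fold for Gins2. The highest of the 4 levels was that of acute AN rats in 32 of 33 genes, against 36.1% of all genes. Ccnb2 is among these 32 and, for the reason given above, is not support here either.

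**Figure D3:**
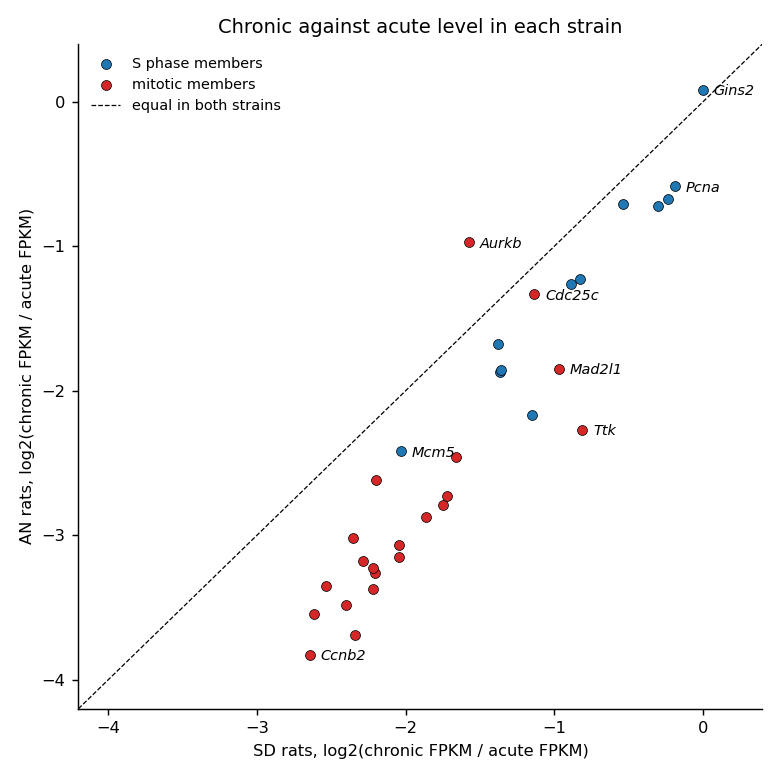
log2 of the chronic over the acute FPKM in SD rats, horizontal, and in AN rats, vertical, for the 33 genes; the dashed line marks equal change in both strains. Mitotic genes (red) lie further down and left than S phase genes (blue), and 31 of 33 genes lie below the line, with Aurkb and Gins2 above it.

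Within a group the balance of the 2 classes can be read without comparing tables. The summed FPKM of the 21 mitotic genes was 0.984 times that of the 12 S phase genes in acute SD rats and 1.32 times in acute AN rats, and after 8 weeks it was 0.360 times in SD and 0.373 times in AN rats. Pcna made up much of the S phase sum, and without it the ratios were 1.95, 2.45, 0.927 and 0.897 in the same order. Without Pcna, Aurkb and Ttk they were 1.77, 2.24, 0.789 and 0.680. The mitotic sum was therefore larger relative to the S phase sum in the acute phase in both strains, and at 1 week more so in AN than in SD rats, while at 8 weeks which strain had the larger ratio depended on the genes in the sums. By medians the mitotic genes stood at 11.4 and S phase genes at 9.08 FPKM in SD rats at 1 week, and at 22.3 and 14.2 FPKM in AN rats. At 8 weeks the order was turned, with 2.98 for mitotic and 4.62 FPKM for S phase genes in SD rats and with 2.63 and 5.09 FPKM in AN rats.

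Aurkb and Ttk were out of step with their class in the chronic phase. Aurkb (chromosome 10, 55798710 to 55804367 on RN4) encodes the kinase of the chromosomal passenger complex, which corrects faulty attachments and controls cytokinesis. It was at 13.8 FPKM in SD and 27.8 FPKM in AN rats at 1 week and at 4.65 and 14.2 FPKM at 8 weeks, so its AN to SD ratio went from 2.01-fold in the acute to 3.05-fold in the chronic phase. The chronic AN level of Aurkb was about that of acute SD rats, while the other 20 mitotic genes had chronic AN levels below their acute SD levels. Its partners in the complex, Incenp and Cdca8, which were picked after the values were seen, had a chronic log2FC of 0.27 and −0.04. The genes listed on either side of Aurkb, Ctc1 and Borcs6, picked in the same way, had a chronic log2FC of 0.07 and 0.00. Ttk (chromosome 8, 88906665 to 88944613 on RN4) encodes Mps1, the kinase that starts the spindle checkpoint. It was at 8.47 FPKM in SD and 10.9 FPKM in AN rats at 1 week and at 4.83 and 2.25 FPKM at 8 weeks, a chronic level 0.466-fold that of SD rats. Its checkpoint partners Bub1, Bub1b and Mad2l1 had chronic ratios from 1.04-fold to 1.06-fold. Its listed neighbors Elovl4 and Bckdhb, also picked after the values were seen, had a chronic log2FC of −1.14 and −0.06. With 1 value per group it is not known how many of the 3 rats carry the chronic levels of Aurkb and Ttk.

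Genes of the same processes outside the 48 were examined by list. Of 35 other mitotic genes that were matched and passed the filter, 24 were at least 1.5-fold higher in acute AN rats, against 7.45% of all genes, and none was lower by that much, against 19.4%, with a median log2FC of 0.69. The 4 with the largest acute log2FC were Cenpt (1.22), a kinetochore protein whose listed locus is shared with another gene, Cep55 (1.14), which acts at abscission, Melk (1.01), a mitotic kinase, and Cdca3 (0.95), a trigger of mitotic entry. In the chronic phase their median was −0.04, and 2 were at least 1.5-fold higher (6.63% of all genes), the spindle motor Kif15 and the centromere protein Cenph, and 2 lower (10.8% of all genes), Anln, which encodes anillin, and Pbk, all 4 named after their values were seen. Of 21 other DNA replication genes, 3 were at least 1.5-fold higher in acute AN rats, again beside 7.45% of all genes, and none lower, with a median of 0.34. These were Orc1 (1.42), the origin recognition subunit that cycles, at 0.811 FPKM in SD and 2.16 FPKM in AN rats, Chaf1b (0.71), a histone chaperone of the fork, and Prim2 (0.66), a primase subunit. Orc1 passed the filter only through its acute AN level, so its call is not support for a difference. By medians the other mitotic genes lay above the other replication genes in the acute phase, as in the members. Some mitotic names came from the study's gene table, whose copy favors genes that differed in the acute phase. Named without it, 20 of 31 other mitotic genes were at least 1.5-fold higher, against 7.45% of all genes, with a median of 0.65. All 21 replication genes kept their names without it, with a median of 0.34.

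**Figure D4:**
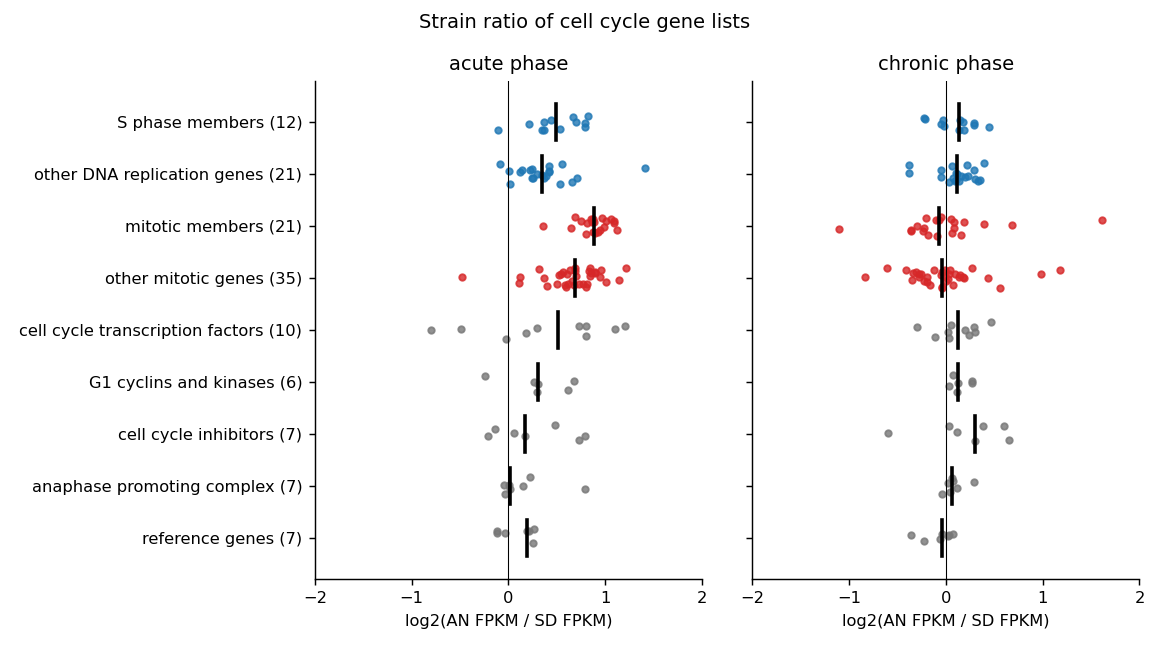
log2FC (AN over SD) of each gene of 9 lists in the acute phase (left) and the chronic phase (right), with 1 point for each gene that passed the filter, the number of genes in brackets and the median as a black bar. In the acute phase the medians are 0.49 and 0.34 for the S phase lists, 0.88 and 0.69 for the mitotic lists and 0.01 for the anaphase promoting complex.

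Cell cycle transcription factors were mixed. Among 10 of them 5 were at least 1.5-fold higher in acute AN rats and 1 lower, against 7.45% and 19.4% of all genes, with a median log2FC of 0.51. Named without the study's gene table, whose copy favors genes that differed in the acute phase, 4 of 9 were higher, with a median of 0.29. Mybl2, which encodes B-Myb, was at 3.30 FPKM in acute SD and 7.60 in acute AN rats and at 0.724 and 0.732 FPKM in the chronic phase. E2f7, a repressor that E2F factors induce, was at 1.11 and 2.38 and then at 0.268 and 0.308 FPKM. Foxm1 was at 7.69 and 13.4 and then at 3.23 and 3.95 FPKM. Tfdp2, a partner of E2F factors, was at 8.48 and 4.87 FPKM in the acute phase, with a log2FC of −0.80. The MuvB subunits Lin37 and Lin52 and the factors E2f3 and E2f4, named after their values were seen, did not pass 1.5-fold, with an acute log2FC of −0.03, −0.49, 0.18 and 0.29.

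Genes that act upstream or that are not transcribed in waves are read against the same acute shares of all genes, 7.45% higher and 19.4% lower by 1.5-fold. Of 6 G1 cyclins and kinases 2 were at least 1.5-fold higher in acute AN rats, Ccnd1, which encodes cyclin D1 (0.62), and its partner Cdk6 (0.68). Of 7 cell cycle inhibitors 2 were higher, Rbl1 (0.79), which encodes p107 and is itself an E2F target, and Cdkn1c (0.73), which encodes p57. In the chronic phase 2 inhibitors were at least 1.5-fold higher (6.63% of all genes), Cdkn1c (0.65) and Wee1 (0.60). Lower by that much was 1 (10.8% of all genes), Btg2 (−0.60), with Wee1 and Btg2 named after their values were seen. Of 7 genes of the anaphase promoting complex list, 1 was higher by 1.5-fold, the inhibitor Fbxo5 (0.79), which is transcribed with S phase genes, and the list median was 0.01. None of 7 reference genes passed 1.5-fold in either phase, with medians of 0.19 and −0.04. Of these Ppia and Gapdh, the latter named for its level, were listed far below their usual level in tissue, at 3.59 and 0.653 FPKM in acute SD rats, and their names, taken from gene order, are uncertain.

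Markers of the cells present in the segment differed between strains at the same time, and their part in the results above was not tested. Beside each acute count of markers stand 7.45% of all genes at least 1.5-fold higher and 19.4% at least 1.5-fold lower in AN rats. In the acute phase 8 of 12 macrophage and microglia markers were at least 1.5-fold higher in AN rats and 1, Lyz2, was lower, with a median log2FC of 0.68, and their FPKM summed over the matched list to 6483 in SD and 10500 in AN rats. Cd14 (1.17), Itgam (1.12) and Fcgr1a (1.00) had the largest positive log2FC, and Lyz2 was at −4.19. The name Lyz2 came only from the study's gene table and is uncertain, and its acute SD level, 20.5 FPKM, was the lowest of the list. Named without that table, 6 of 9 markers were at least 1.5-fold higher and 0 lower, with a median of 0.66. All 5 fibroblast and pericyte markers were higher, 4 of them by 1.5-fold, with Postn, which encodes periostin, at 1.80, Fn1 at 1.06 and a summed FPKM of 2646 and 4794. In the opposite direction, 10 of 10 neuron markers (summed FPKM 833 and 111), 4 of 4 oligodendrocyte markers (1771 and 821), 5 of 5 Schwann cell markers (1719 and 627) and 3 of 4 astrocyte markers (6400 and 2306) were at least 1.5-fold lower in acute AN rats. The astrocyte gene Gfap is listed at 0 in chronic SD rats and at 5824 FPKM in chronic AN rats, so no chronic ratio is given for it. Of 8 oligodendrocyte precursor markers 3 were lower by that much and none higher (525 and 373).

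Of 9 T cell markers 6 were at least 1.5-fold lower in acute AN rats. The list nevertheless summed to 218 FPKM in SD and 289.8 FPKM in AN rats, with Cd8a the marker that differed most in FPKM. The CD3 chains Cd3d, Cd3e and Cd3g, at 0.798, 1.04 and 2.74 FPKM in SD rats, were at 0.189, 0.340 and 0.531 FPKM in AN rats. In acute AN rats Cd247 was at 0.142 and Cd28, named for this reason, at 0.344 FPKM. These 2 genes, Cd3d and Cd3e passed the filter only through the other groups, so their calls are not support for a difference. At least 1.5-fold higher was 1 T cell marker, Cd8a, named because it was the only one, at 76.0 and 199 FPKM, a gene that rat macrophages and NK cells can also express. The B cell list had 1 marker past the filter (−0.55, summed FPKM 1.88 and 0.955), the NK cell list 2 (median −0.72, 2.42 and 1.45) and the neutrophil list 2 (median −0.17, 23.9 and 32.6). These 2 neutrophil markers went opposite ways past 1.5-fold, Csf3r at 0.60 and Camp at −0.93. Both endothelium markers were near equal (median −0.09, 42.8 and 40.3), and 3 of the 4 identifiers of erythroid genes past the filter were lower (746 and 250), all 3 of them hemoglobin genes named from the study's gene table. In the chronic phase these 3 were higher, with a list median of 0.91 and sums of 270.5 and 1041. In the chronic phase the macrophage and microglia list had a median of 0.02 and summed to 3681 in SD and 5629 in AN rats, most of this gap being that of Gpnmb, named for this reason, at 1967 and 3583 FPKM. The 10 neuron markers were still all at least 1.5-fold lower, against 10.8% of all genes in the chronic phase, with a median of −2.03 and sums of 806 and 219, and the fibroblast and pericyte list had a median of 0.72 and summed to 832 and 1254. From the acute to the chronic phase the macrophage and microglia list declined by a median log2 ratio of −0.57 in SD and −1.05 in AN rats and the fibroblast and pericyte list by −1.64 and −1.86, beside −2.20 and −3.06 for the mitotic genes.

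The names of the genes bear on these counts because the tables list identifiers without symbols. Of the 33 members 4 have identifiers given with the definition of the gene set, 18 were named from the study's gene table, 2 from synonyms and 9 from gene order. The copy of that gene table used here holds only genes that the authors called different between strains in the acute phase, so names taken from it favor such genes. Without it 31 of 33 members received the same name, all but Cdk1 and Mad2l1, and 23 of these 31 were at least 1.5-fold higher in acute AN rats.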

How the data were processed

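RNA-seq of 12 rats in 4 groups of 3 was analysed. Per the labels and the study's methods, the authors trimmed reads with CutAdapt, mapped them to the RN4 genome with TopHat 1.5.0, assembled transcripts with Cufflinks 0.0.6 using quartile normalization and compared strains with Cuffdiff. The 2 deposited tables, 1 for each phase, hold the FPKM the authors gave each group. They also hold the authors' comparisons (status, fold change, test statistic, p, q and a significance call), which were not used, and so no test was made. Replicate spread and reads per gene are not in the FPKM, which limits precision.

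Log2 ratios of FPKM were taken without a pseudocount among the 11829 genes with a mean FPKM of at least 0.5. A gene counted as called past 1.5-fold. The ratio and count steps were tested on simulated data. Identifiers were named from the definition of the set, the study's gene table, RGD synonyms or gene order between named genes on GRCr8 (posterior of at least 0.9), which gave 4535 direct names and 7046 by order. Of 1524 held-out genes named again, 1509 were right, with settings picked to keep this share high. Kif20a shares its locus with another identifier, so gene order could not name it and it stayed unmatched. Gins2 also shares its locus but was named from a synonym. RN4 starts are counted from 1. Promoters are RefSeq windows on GRCr8. The members, lists and motifs were chosen with earlier results of these data known. Values are given for every member by role, and in other lists for up to 4 genes with the largest absolute acute log2 ratio, while genes named outside this rule are marked in the text. Python 3.11.15, pandas 2.3.3 and numpy 2.4.6 were used.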

Additional observations from a re-analysis of the deposited data

How the results depend on the processing

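At a 2-fold threshold 5 members were higher in acute AN rats (2.08% of all genes), in place of 25, and 1 in chronic AN rats, in place of 2. A pseudocount of 1 FPKM also left 1 in the chronic phase (Cdc25c no longer passed), as did the members named directly and the members without Aurkb and Ttk, and without these 2 genes 0 were lower, in place of 1. The other alternatives for these counts stayed within 1.5 times. The difference between the mitotic and S phase medians of the acute log2FC, 0.40, was 0.37 with the pseudocount, 0.35 without Mki67, Ccna2 and Chek1, 0.35 without Gins2 and 0.11 among the members named directly. Those are chosen in part by the acute difference itself, and named without the gene table it was 0.40. The chronic difference, −0.21, was −0.20 at a mean FPKM of at least 2, −0.15 with the pseudocount, −0.23 without those 3 genes and −0.36 among directly named members. The median log2 chronic over acute ratio, −1.72 in SD and −2.46 in AN rats, was −1.74 and −2.51 when centred on all genes, −1.39 and −2.05 with the pseudocount and −2.04 and −2.83 among directly named members. No value changed sign. Leaving out each rat was not run, and no paired analysis was possible because the tables hold 1 value for each group. The absence of values for single rats limits all of the results.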
